A study of Mus musculus with 2 samples.

Results

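IL-17-type T cells were lymphocytes of visceral adipose tissue (VAT) that held transcripts of the cytokine IL-17A, the IL-23 receptor or the scavenger receptor gene Cd163l1. They were chosen by counts of unique molecular identifiers (UMIs, the molecules counted per gene and cell). A barcode was kept with at least 200 genes and at most 6% of its UMIs from mitochondrial genes, and was called a T cell with at least 2 UMIs over Cd3d, Cd3e and Cd3g, no Csf1r UMI and at most 1 Cd79a UMI. T cells with at least 1 UMI over Cd163l1, Il17a and Il23r were the IL-17-type T cells. There were 76 of them among 1051 T cells, 8417 kept barcodes and 9357 barcodes in all.

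The cells came from perigonadal VAT of male C57BL/6J mice, bought at 6 weeks of age and acclimated for 2 weeks. Over 24 weeks all mice were fed 60% of calories as fat, with 0.3% cholesterol added, and were injected each week with 5 mg/kg of an antisense oligonucleotide against the low-density lipoprotein receptor. The obese group was then collected, while the caloric restriction (CR) group received 70% of its free intake of the diet for 2 weeks; the label of the CR library calls the restriction life-long, whereas the methods of the study give the shorter time used here. Mice were perfused, live CD45+ cells were sorted, and 1 library of 3′ single-cell RNA-seq was made per group. With 1 library per group, diet and library cannot be told apart and no comparison below carries a test. The number of mice per library was not stated. Intervals are exact 95% intervals that cover counting error only. The obese library held 42948242 UMIs in 5795 barcodes and the CR library 19696476 UMIs in 3562 barcodes. The libraries shared 28 barcode sequences, 18 of them kept in both, and no IL-17-type T cell had its barcode called IL-17-type in both.

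T cells that make IL-17 include innate-like cells, among them the gamma delta T cells that leave the thymus already committed to the cytokine, and conventional CD4+ cells that become Th17 cells after activation. Both respond to IL-23 made by myeloid cells. In adipose tissue, gamma delta T cells that make IL-17 are known as resident cells with roles in regulatory T cell upkeep, sympathetic innervation and thermogenesis. CD163L1, also called SCART1, is known as a surface marker of IL-17-committed gamma delta T cells, which is why the gene was part of the choice.

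The receptor chains themselves could not be read. None of the 8 T cell receptor constant genes that GENCODE M21 annotates matched a row of the gene table by identifier or symbol, nor did any of the other 262 annotated receptor gene segments, so receptor genes were not analysed here. Whether the cells carried gamma delta or alpha beta receptors was therefore described only through other genes.

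The promoters of the 3 genes that chose the cells are shown because they belong to the genes on which every result rests. The windows are the 250 bases upstream of each gene start in RefSeq (build GRCm38.p6), printed 5′ to 3′ on the strand of the gene. Capitals mark the nuclear receptor half-site AGGTCA or its reverse complement TGACCT, searched on both strands with no overlap between them. Il17a (chr1:20730655-20730904, plus strand), Il23r (chr6:67491856-67492105, minus strand) and Cd163l1 (chr7:140218017-140218266, plus strand) were read as follows.
Il17a: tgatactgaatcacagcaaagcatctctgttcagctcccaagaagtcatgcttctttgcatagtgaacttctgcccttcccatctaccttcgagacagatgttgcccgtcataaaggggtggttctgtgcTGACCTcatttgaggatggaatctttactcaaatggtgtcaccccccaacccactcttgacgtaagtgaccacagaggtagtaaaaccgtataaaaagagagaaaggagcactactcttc
Il23r: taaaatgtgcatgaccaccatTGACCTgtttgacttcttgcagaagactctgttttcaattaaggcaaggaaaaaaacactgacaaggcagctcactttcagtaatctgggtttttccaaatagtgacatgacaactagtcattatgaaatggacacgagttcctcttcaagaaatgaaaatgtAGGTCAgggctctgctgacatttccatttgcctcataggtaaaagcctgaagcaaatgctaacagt
Cd163l1: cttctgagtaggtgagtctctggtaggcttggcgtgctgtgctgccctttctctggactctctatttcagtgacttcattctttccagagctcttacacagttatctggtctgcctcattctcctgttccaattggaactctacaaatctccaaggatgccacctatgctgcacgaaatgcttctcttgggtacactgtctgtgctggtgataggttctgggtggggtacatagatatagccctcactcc
The Il17a window held 1 match, starting 120 bases before the gene start, and the Il23r window held 2, starting 66 and 229 bases before it. The Cd163l1 window held 0 matches of these letters. Over all RefSeq windows of this length, 4607 of 32851 (14.0%) held the half-site. A match is therefore only a description of the sequence, and binding was not examined.

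The 3 genes were spread unevenly over the cells. Cd163l1 (chromosome 7, bases 140218267 to 140231145, GENCODE M21 on GRCm38) was held by 39 of 45 IL-17-type T cells of the obese library, with 150 UMIs and at most 9 per cell, and by 18 of 31 of the CR library, with 57 UMIs and at most 7. Il17a (chromosome 1, bases 20730905 to 20734496) was held by 20 of 45 and 15 of 31 cells, with 159 and 96 UMIs. Il23r (chromosome 6, bases 67422932 to 67491855) was held by 11 and 10 cells, at 1 or 2 UMIs each. Cd163l1 was thus the broadest of the 3, while Il17a was uneven between cells, with up to 32 UMIs in 1 obese cell and up to 19 in the CR cells against a median of 0 in both libraries. In the obese library 18 cells held Cd163l1 alone, 12 held it with Il17a, 5 held it with Il23r and 4 held all 3 genes. Of the remaining obese cells, 4 held Il17a alone and 2 held Il23r alone. In the CR library 8 cells held Cd163l1 alone, 8 Il17a alone and 5 Il23r alone, while 5 held Cd163l1 with Il17a, 3 held Cd163l1 with Il23r and 2 held all 3. No cell of either library held Il17a and Il23r without Cd163l1. These values chose the cells and are a description.

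**Figure D1:**
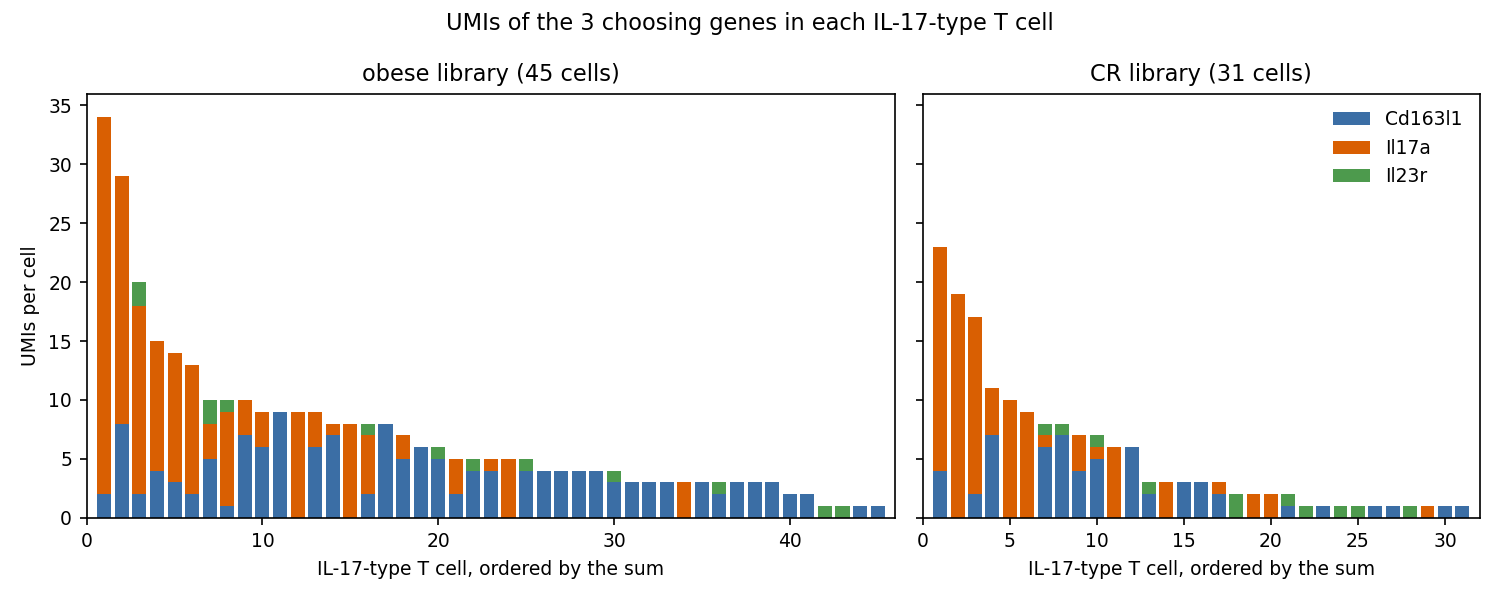
UMIs per cell (y axis) of Cd163l1, Il17a and Il23r, stacked for each IL-17-type T cell (x axis), for the 45 obese and 31 CR cells. Cd163l1 is present in 39 obese and 18 CR cells, and Il17a reaches 32 UMIs in 1 obese cell.

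Cells near the limits of the choice were few in the obese library and more common in the CR library. The summed count of the 3 genes had a median of 5 UMIs in the obese cells and 3 in the CR cells, and 4 obese and 10 CR cells entered with a single UMI. The summed Cd3 count had a median of 13 and 10 UMIs, and 1 cell of each library entered with the minimum of 2. Just outside the limits, 30 obese and 16 CR kept barcodes held 1 of the 3 genes without being called. Of these, 23 obese and 8 CR barcodes held Csf1r, the receptor gene used here to call macrophages (Møs). Among kept barcodes that were not T cells, 0.627% (obese) and 0.619% (CR) held 1 of the 3 genes, a share that would give 3.90 of the 621 obese T cells and 2.66 of the 430 CR T cells. Il17a was found in 5 of 2614 obese Møs and 5 of 823 CR Møs, Cd163l1 in 7 and 0, and Il23r in 0 and 0, which allows a share of up to 0.115% and 0.365%. Such limits beside a count of 0 take 3 cells of the total, for cells with a UMI and for counting error only. Møs were deeper than the IL-17-type T cells, with median UMIs of 7408.5 (obese) and 6748 (CR) against 3159 and 2900.

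IL-17-type T cells made up similar shares of both libraries. They were 0.833% of 5402 kept obese barcodes (interval 0.608% to 1.11%) and 1.03% of 3015 kept CR barcodes (0.700% to 1.46%), a ratio of CR to obese of 1.23 (0.755 to 1.99). Among T cells they were 7.25% in the obese library (5.33% to 9.58%) and 7.21% in the CR library (4.95% to 10.1%), a ratio of 0.995 (0.609 to 1.61). Both intervals of the ratio include 1, and the interval over T cells leaves room for a share of IL-17-type T cells from 0.609 to 1.61 times as large under CR. With at least 2 UMIs of the 3 genes required, which removed the 4 obese and 10 CR cells with a single UMI, the shares of T cells were 6.60% (obese) and 4.88% (CR). With Cd163l1 left out of the choice, they were 4.35% and 5.35%, so the order of the libraries depended on how the cells were chosen.

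Type 17 genes that played no part in the choice set the cells apart from the other 576 obese and 399 CR T cells. Blk, a Src-family kinase known from B cells and from IL-17-committed gamma delta T cells (chromosome 14, bases 63372836 to 63417037), was held by 30 of 45 obese cells (66.7%) and 15 of 31 CR cells (48.4%). In other T cells it was held by 0.868% and 0.752%, and in Møs by 0.115% and 0.365%. After every cell was thinned to 1500 UMIs, Blk stood at 42.2% and 35.5% of IL-17-type T cells against 0.521% and 0 of 399 other T cells, which allows up to 0.752%. The contrast was therefore present at equal depth as well.

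Rora, a nuclear receptor of type 17 and innate lymphoid cells, was held by 66.7% of obese and 74.2% of CR IL-17-type T cells, against 115 of 576 and 132 of 399 other T cells and 4.93% and 8.75% of Møs. Sox13, a transcription factor of the gamma delta lineage, was held by 7 of 45 and 3 of 31 cells, against 0 of 576 obese other T cells, which allows up to 0.521%, and 1 of 399 CR ones. Zbtb16, which encodes PLZF, the factor of innate-like T cells, was held by 9 of 45 and 6 of 31 cells, against 1.39% and 3.51% of other T cells and 3.94% and 7.17% of Møs. These 3 transcription factors were thus each held by a larger share of IL-17-type than of other T cells. Ccr6, a homing receptor of type 17 cells, was held by 3 cells in each library, Il1r1, the IL-1 receptor, by 5 and 3, and Il17f, the sister cytokine, by 1 and 2. 5830411N06Rik, the gene of the related receptor SCART2, which lies next to Cd163l1 (chromosome 7, bases 140247284 to 140300736), was held by 3 and 4 cells. Of these, 2 were among the 6 obese cells without Cd163l1 and 4 among the 13 CR cells without it. Il22 had 0 UMIs in the IL-17-type T cells of both libraries.

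Counting 8 of these markers together (Il17f, Ccr6, Il1r1, Blk, Sox13, Maf, Zbtb16 and 5830411N06Rik), 27 of 45 obese cells and 19 of 31 CR cells (61.3%) held at least 2. Other T cells did so in 1.74% and 3.01%, and Møs in 2.37% and 3.40%. At least 3 were held by 28.9% and 22.6% of IL-17-type T cells, against 0.521% and 0.501% of other T cells. The label of type 17 cells therefore matched markers other than those that chose the cells, in both libraries, for a majority but not for all of the cells. The 8 markers belong to a list of type 17 genes that was chosen with earlier results of these data known. No marker of the 8 was held by 5 of 45 obese and 8 of 31 CR cells.

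**Figure D2:**
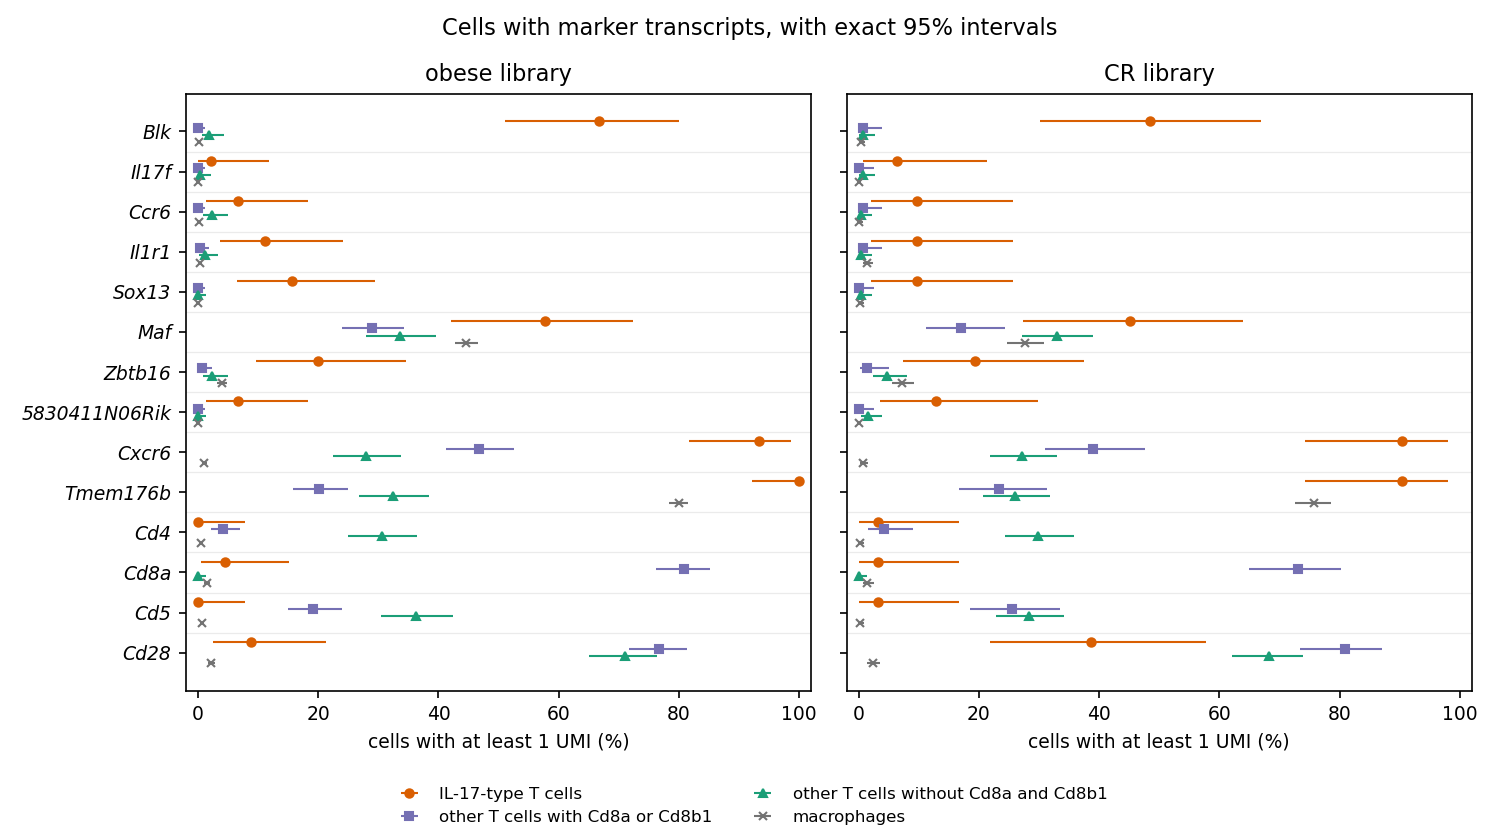
Percent of cells with at least 1 UMI (x axis) of genes that did not choose the cells (y axis), in IL-17-type T cells, other T cells with and without Cd8 genes, and macrophages of the obese and the CR library, with exact 95% intervals as bars. Blk is held by 66.7% and 48.4% of IL-17-type T cells against 0.868% and 0.752% of all other T cells, whereas Tmem176b is also common in macrophages.

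Genes of conventional T cells were missing from most of the cells. Neither Cd4 nor Cd8a nor Cd8b1, the coreceptors of alpha beta T cells, was held by 43 of 45 obese (95.6%) and 27 of 31 CR cells (87.1%), against 31.6% and 45.4% of other T cells. Cd4 was held by 0 of 45 obese cells, which allows up to 6.67%, and by 1 of 31 CR cells, whereas the Cd8 genes were held by 2 and 3. Lck, the kinase that starts signalling from the coreceptors, was held by 2 of 45 and 10 of 31 cells, against 80.6% and 74.9% of other T cells. Cd28, the costimulatory receptor (chromosome 1, bases 60716800 to 60773359), was held by 4 and 12 cells, against 74.1% and 72.7%. Møs held Lck in 2.52% and 1.94%, and Cd28 in 2.18% and 2.31%. Cd5, an inhibitory receptor tuned by alpha beta receptor signals, was held by 0 and 1 cells, against 26.9% and 27.3%. Lck and Cd28 were held by a larger share of the CR than of the obese cells, while Cd4, the Cd8 genes and Cd5 were held by at most 3 cells in each library.

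Taking Cd4, Cd8a, Cd8b1, Cd5, Cd6, Cd27, Cd28, Cd2 and Lck as a set of 9 conventional genes, a set picked after the values were seen, 34 of 45 obese cells (75.6%) and 15 of 31 CR cells (48.4%) held none. Other T cells held none in 1.22% and 2.26%. At least 2 were held by 4 obese cells (8.89%, 2.48% to 21.2%) and 10 CR cells (32.3%, 16.7% to 51.4%), against 96.2% and 94.5% of other T cells and 2.18% and 1.22% of Møs. The intervals of the 2 libraries overlap. With all cells thinned to 1500 UMIs these shares were 6.67% and 22.6%.

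The conventional genes were set beside how narrowly a cell was chosen, as counts without a test. Of the 10 CR cells with a single UMI of the 3 choosing genes, 6 held at least 2 conventional genes, against 4 of the 21 CR cells with more. In the obese library the numbers were 2 of 4 and 2 of 41. The CR cells with a single UMI were also deeper, with a median of 3424 UMIs against 2650, and after thinning to 1500 UMIs the CR numbers were 4 of 10 and 3 of 21. At least 2 conventional genes were held by 4 of the 18 CR cells with Cd163l1 and 6 of the 13 without it, whose median depths were 2601 and 3649 UMIs. At equal depth these became 22.2% and 23.1%, so that the contrast in this count was not seen there. Cells with no conventional gene at equal depth still differed, at 13 of 18 CR cells with Cd163l1 and 5 of 13 without it. In the obese library they were 35 of 39 with Cd163l1 and 2 of 6 without it. The 10 CR cells with 2 or more conventional genes held Blk in 2, any of the 8 type 17 markers in 5, Cxcr6 in 8 and Tmem176b in 7. The 15 CR cells without conventional genes held Blk in 9, any type 17 marker in 12, Cxcr6 in 14 and Tmem176b in 15. Both groups of CR cells are small, and the set of genes was picked on these cells.

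**Figure D3:**
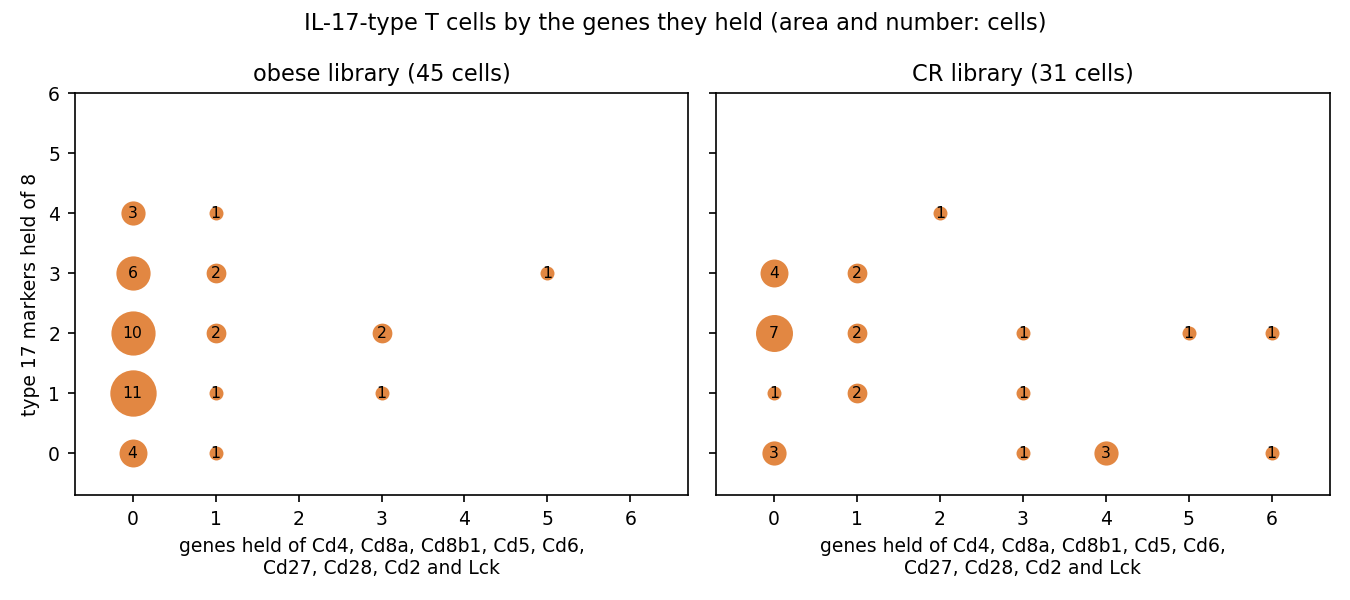
IL-17-type T cells by how many of the 9 conventional T cell genes (x axis) and of the 8 type 17 markers (y axis) they held; the area of a circle and its number give the cells, for the obese and the CR library. In the obese library 34 of 45 cells sit at 0 conventional genes, and in the CR library 15 of 31 do, with 10 at 2 or more.

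For levels, UMIs were summed over cells and scaled to CPM, the count a gene would have in 1000000 UMIs, from 157695 obese and 108004 CR UMIs from IL-17-type T cells, and compared with the sums over other T cells of the same library. Ratios are log2 of CPM with 5 CPM added to each side, which understates the difference of low genes. Of 2736 genes with at least 20 UMIs in the 2 pools and 50 CPM in 1 of them, in each library, 116 (4.24%) were at least 2-fold higher in the IL-17-type T cells of both libraries. At least 2-fold lower in both were 66 (2.41%). Cd163l1 and Il17a, which chose the cells, are among the 116, and Il23r was under the limits. With scaling by edgeR's TMM factors, which moved the median ratio of all genes from 0.13 to −0.14 in both libraries, the counts were 79 higher and 97 lower. Against other T cells without Cd8a and Cd8b1, 94 genes were higher and 57 lower. Of these, 88 were among the 116 and 44 among the 66.

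**Figure D4:**
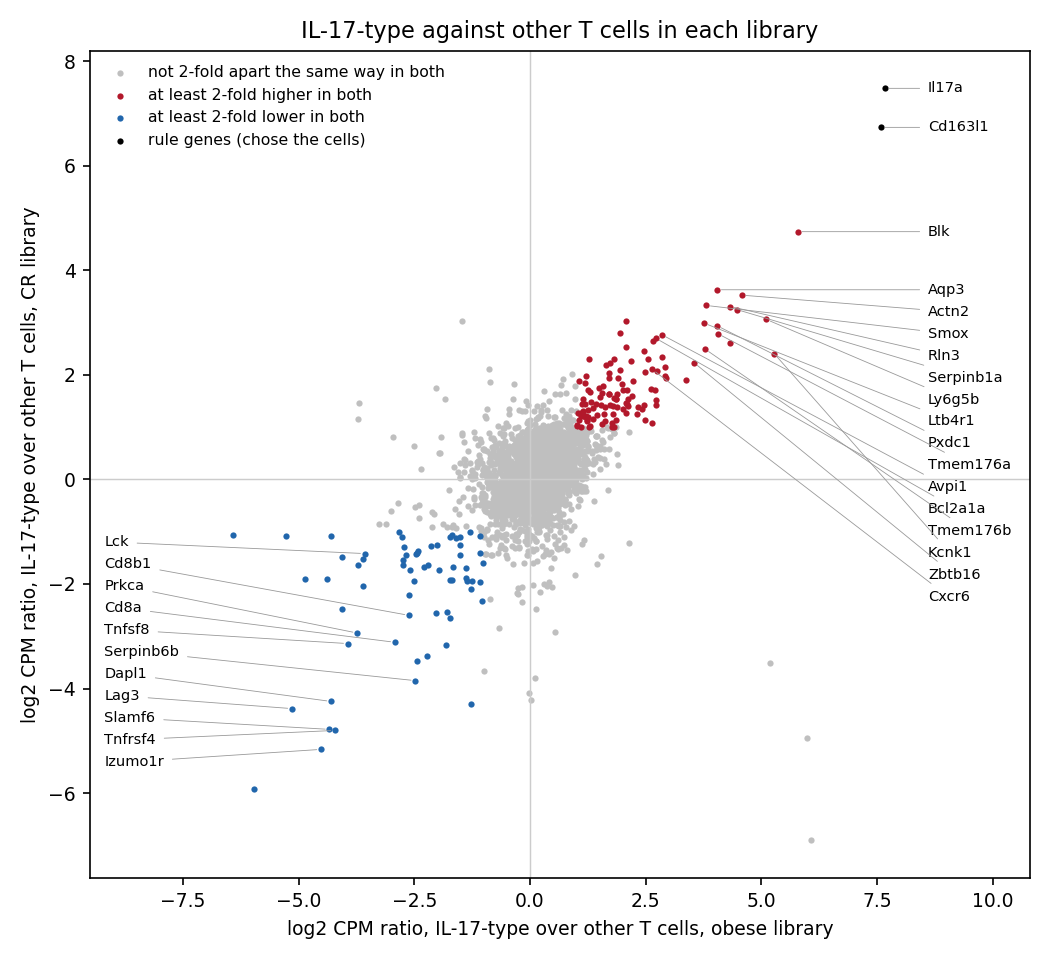
Log2 CPM ratio of IL-17-type over other T cells in the obese (x axis) and the CR library (y axis), 1 point per gene for 2736 genes. Genes at least 2-fold apart the same way in both libraries are coloured (116 higher, 66 lower), with Blk the farthest up apart from the genes that chose the cells.

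The list of type 17 genes had 30 members outside the choosing genes, of which 19 passed the limits on low counts and 16 were at least 2-fold higher in both libraries. Its median log2 ratio was 3.55 (obese) and 2.23 (CR) beside 0.13 and 0.13 over all genes. Over all genes measured, 4.24% were at least 2-fold higher in both libraries. The list was chosen with earlier results of these data known, and a gene can pass those limits through the cells in which it is high. The count is therefore a description, and with no limit on counts it was 23 of the 30. Blk was 5.79 higher on the log2 scale in the obese library (66 UMIs against 7) and 4.74 in the CR library (23 against 4). Actn2, an actin cross-linking protein, was 4.58 and 3.53 higher, and was held by 37 of 45 obese and 16 of 31 CR cells against 4.17% and 5.51% of other T cells. Aqp3, a water and glycerol channel, was 4.05 and 3.63 higher. Serpinb1a, an inhibitor of serine proteases, was 4.47 and 3.25 higher. All of these were counted in at least 13 cells of each library, so none rested on a single cell.

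Ltb4r1, the receptor for the chemoattractant leukotriene B4, was 3.76 and 2.99 higher, with 85 and 62 UMIs. Pxdc1, a little-studied gene, was 4.05 and 2.94 higher. Kcnk1, a potassium channel, was 5.28 higher in the obese library and 2.41 in the CR library, where it was held by 27 of 45 and 6 of 31 cells. These genes were high in both libraries, with the smaller ratio in CR each time. Tmem176b, a membrane channel protein, reached 2695 CPM (obese) and 1426 CPM (CR) in IL-17-type T cells, while other T cells had 191 and 249 CPM and Møs 638 and 716 CPM. It was held by 45 of 45 obese and 28 of 31 CR cells, and by 80.0% and 75.7% of the deeper Møs. Tmem176a, its neighbour, was 4.06 and 2.79 higher than in other T cells. Other T cells, which shared the free RNA of the same libraries, held Tmem176b in 25.7% and 25.1%. Ramp1, a subunit of the receptor for the neuropeptide CGRP, was 3.38 and 1.90 higher, with 159 and 76 UMIs.

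Members of the list that did not follow were few. Maf, a transcription factor that type 17 and other helper cells share, was 0.85 and 0.63 higher, and Stat3, which carries signals from the IL-23 receptor, stood at −0.48 and −0.36. Batf, a factor needed by Th17 cells, was the 1 member at least 2-fold lower in both libraries, at −1.08 and −1.09, with 7 and 6 UMIs. Of the 11 members under the limits, Il22 had 0 UMIs, and Ahr, Irf4 and Sox4 had at most 3 UMIs per library. Il12rb1, a chain of the IL-12 and IL-23 receptors, had 6 and 8 UMIs, and Lingo4, a neuronal adhesion gene, 3 and 5. The list's other high members were Zbtb16 at 3.55 and 2.23, Cxcr6, a chemokine receptor, at 2.64 and 2.10, Il18r1 at 2.63 and 1.09, Rora at 2.02 and 1.35, Il7r at 1.17 and 1.22, and Cd44, an adhesion receptor of activated cells, at 1.13 and 1.44.

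Genes outside the list were also among the highest in both libraries. Smox, the enzyme spermine oxidase, was 3.81 and 3.33 higher, and Rln3, which encodes the peptide hormone relaxin 3, was 4.33 and 3.31 higher. Rln3 was held by 22 obese and 6 CR cells. Ly6g5b, a member of the Ly6 family, was 5.11 and 3.06 higher, and Avpi1, a gene induced by vasopressin, was 2.85 and 2.77 higher. Bcl2a1a, a survival gene with near-identical copies whose reads the counting may split, was 2.72 and 2.70 higher, although 17 of its 24 CR UMIs came from 1 cell. Apart from Bcl2a1a in the CR library, these genes were held by 6 to 27 cells per library.

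Among cytokines and growth factors, 5 of 16 listed genes passed the limits, which a gene can do through the cells in which it is high. Of the 5, 2 were at least 2-fold higher in both libraries, beside 4.24% of all genes. Tnf, the inflammatory cytokine, was 2.46 and 1.42 higher, in 12 of 45 and 7 of 31 cells, and was also held by 23.0% and 31.2% of Møs. Tnfsf11, which encodes RANKL, was 2.42 and 1.35 higher, in 12 and 5 cells. Tgfb1, an immunoregulatory cytokine, was 0.83 and 0.60 higher, and Areg, the repair factor amphiregulin, stood at 0.60 and −1.34. Ifng, the type 1 cytokine, stood at −3.27 and −0.85 with 2 and 6 UMIs. Beside Il17a, then, Tnf and Tnfsf11 were the listed cytokine genes that passed the limits and were at least 2-fold higher in both libraries.

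Of 18 receptors for IL-23, IL-1, IL-18, IL-7 and other cytokines and their signalling genes, 8 passed the limits. Of the 8, 2 were at least 2-fold higher in both libraries, beside 4.24% of all genes. Il18r1, the IL-18 receptor chain, was 2.63 and 1.09 higher, and Il7r, the receptor of the survival cytokine IL-7, 1.17 and 1.22. The list's median was 0.46 and −0.09. Il2ra, the high-affinity chain of the IL-2 receptor, was under the limits, with 18 obese and 2 CR UMIs and shares of 26.7% and 6.5% of cells against 3.5% and 6.5% of other T cells.

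Of the 13 genes of the T cell receptor and coreceptor complex, 8 were at least 2-fold lower in both libraries, beside 2.41% of all genes, and 1, Icos, was higher. The median log2 ratio was −2.61 and −1.64, or −2.21 and −1.64 with genes at 0 UMIs set to their bound. Lck stood at −3.58 and −1.42 (5 and 20 UMIs), Cd8b1 at −2.62 and −2.60, Cd8a at −2.92 and −3.12, and Cd2, an adhesion receptor, at −2.21 and −1.64. Cd28 stood at −3.11 in the obese library and −0.86 in the CR library. Cd5 had 0 obese UMIs, at least 4.13-fold lower than in other T cells when 3 UMIs over the pool are taken as the floor. Against these, Icos, a costimulatory receptor of the Cd28 family, was 1.62 and 1.11 higher. The signalling genes that every T cell receptor shares were not lower, with Cd247 at 1.40 and 0.32, Zap70 at 0.92 and 0.01 and Lat at 0.89 and 0.04. Cd3g was 0.95 and 0.36 and Cd3d −0.03 and −0.26, both part of the choice of T cells.

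Of the 13 cytotoxic and type 1 genes that passed the limits, 7 were at least 2-fold lower in both libraries, beside 2.41% of all genes, and 0 were higher, with a median of −2.46 and −1.08. The other T cells included 314 obese and 141 CR cells with Cd8a or Cd8b1, and this list was not set against the rest alone. Ccl5, a chemokine of effector cells, stood at −2.74 and −1.64, and 216 of 273 obese and 170 of 260 CR UMIs came from 1 cell each. Nkg7, a granule protein, stood at −2.46 and −1.43, and Gzmk, a granzyme, at −4.06 and −1.49. Klrk1, which encodes the activating receptor NKG2D, stood at 0.04 and 0.72, Klrc1, a receptor of the NKG2 family, at −1.92 and 0.81, and Cxcr3, a chemokine receptor of type 1 cells, at −0.31 and −0.85. Naive and recirculating genes had 3 of 9 lower and 0 higher. Dapl1, a gene of naive T cells, had 0 UMIs in both libraries, at least 4.93-fold (obese) and 3.24-fold (CR) lower. Lef1, a factor of naive T cells, had 0 and 3 UMIs, at least 7.43-fold lower in the obese library and −1.90 on the log2 scale in the CR library. Of 6 regulatory and type 2 genes that passed, 2 were lower, Tnfrsf4 (the OX40 receptor) at −4.22 and −4.80 with 1 UMI in each library, and Tnfrsf18 (GITR) at −1.73 and −1.11.

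Lag3, an inhibitory receptor, had 0 UMIs in both libraries, at least 9.06-fold lower than other T cells in the obese and 3.58-fold in the CR library. Izumo1r, which encodes folate receptor 4 of regulatory and follicular T cells, had 0 UMIs, at least 5.76-fold and 6.28-fold lower. Slamf6, a receptor of less differentiated T cells, had 0 UMIs, at least 5.05-fold and 4.77-fold lower. These genes were among the lowest in both libraries. Tnfsf8, the ligand of CD30, had 0 and 1 UMIs, Prkca, a protein kinase C, 1 and 2, and Serpinb6b, a serine protease inhibitor, was at least 2.41-fold lower in the CR library, where it had 0 UMIs.

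Of 15 measured genes of tissue residence and checkpoint control, 8 were at least 2-fold higher in both libraries, beside 4.24% of all genes, and 0 were lower, with a median of 1.23 and 1.11. Cxcr6, the receptor for the tissue chemokine CXCL16, reached 1401 (obese) and 1037 (CR) CPM, while other T cells had 220 and 237 CPM, and was held by 93.3% and 90.3% of cells, against 1.07% and 0.729% of Møs. Capg, an actin-capping protein, was 2.71 and 1.71 higher, Itgb7, the integrin beta 7 chain, 1.85 and 1.53, and Adam8, a membrane protease, 2.10 and 1.72. The rest of the 8 were Lgals1 (1.06 and 1.14), S100a4 (1.51 and 1.58), S100a6 (1.23 and 1.13) and Icos, given above. Cd69, which retains cells in tissue, was 0.95 and 0.75 higher, short of 2-fold. Pdcd1, the checkpoint receptor PD-1, stood at 0.15 and −0.56.

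Metabolic and stress genes differed little. Their counts are read beside the 4.24% higher and 2.41% lower of all genes, and a count of 1 in a list this short is near that background. Of 9 measured genes of fatty acid uptake, storage and oxidation, 0 were 2-fold apart in both libraries, with a median of 0.33 and 0.15; Plin2, which coats lipid droplets, stood at 0.93 and 0.15. Of 12 glycolysis genes 1 was higher, Hk2, a hexokinase, at 2.18 and 2.26 with 9 UMIs in each library. Of 17 immediate early and heat shock genes, 2 were higher, Hspa1a at 1.95 and 2.80 and Hspa1b at 2.07 and 3.02, both genes of inducible HSP70. Hspa1a was concentrated, with 67 of 157 obese and 116 of 272 CR UMIs in 1 cell each. Of 8 genes of the interferon response and MHC class I, 1 was lower, Ifi27l2a, an interferon-induced gene, at −2.22 and −3.37. Of 7 cell division genes 0 were 2-fold apart in both, with medians of −0.34 and 0.91.

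Markers of other cells gave few counts above those of other T cells. Of 9 measured Mø genes, 0 were 2-fold apart in both libraries, and the whole list took a median of 0.285% of UMIs per obese and 0.303% per CR IL-17-type T cell, against 0.311% and 0.294% in other T cells and 6.74% and 3.59% in Møs. For natural killer cells the 1 measured gene, Eomes, was lower (1 and 2 UMIs), and for group 2 innate lymphoid cells the 1 measured gene, Gata3, stood at −0.52 and −0.18. The natural killer genes Ncr1 and Klrb1c were under the limits and differed between the libraries. In the CR library they had 7 and 6 UMIs in IL-17-type T cells, against 3 and 10 in other T cells. In the obese library they had 1 and 0 UMIs, against 43 and 84. Cd79b, of the B cell receptor, was at least 2-fold higher in both, with 9 and 7 UMIs. Fibroblast genes had 1 of 4 lower, the endothelial gene Fabp4 stood at −0.66 and −0.50, and erythroid genes had 1 of 3 lower. Over all genes, 4.24% were higher and 2.41% lower. Single cells departed from this. In the obese library 1 IL-17-type T cell held 115 UMIs of S100a8 and 83 of S100a9, alarmins of neutrophils, and another took 5.62% of its 10369 UMIs from the Mø list, 557 of them Cd74. In the CR library 1 cell took 4.21% from the Mø list, and another held 25 UMIs of Fcgr4, a Mø Fc receptor, and 53 of Hmox1, the haem-degrading enzyme. Values without these 4 cells are given below where they differ.

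Within the IL-17-type T cells, CR over obese ratios were computed for 1979 genes with the same limits on counts. At least 2-fold higher in CR were 114 (5.76%) and at least 2-fold lower 82 (4.14%), with a median ratio of 0.00 over all genes. TMM scaling moved that median to −0.16 and the counts to 73 higher and 125 lower. Of the 196 genes, 30 drew more than 50% of the UMIs on their higher side from 1 cell. The counting interval left out a ratio of 1 for 136, and 146 were still at least 2-fold apart without the 4 cells above. In other T cells 128 of the 196 pointed the same way, and 15 were at least 2-fold apart that way too. Requiring at least 2 UMIs of the choosing genes removed 4 obese and 10 CR cells. Then 1634 genes passed the limits on counts, with 79 higher and 95 lower in CR. These included 54 of the 114 higher and 56 of the 82 lower genes. Which genes were past 2-fold thus depended in part on whether cells with a single UMI were kept.

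Differences shared with other T cells included Fabp4, a fatty acid binding protein of endothelial cells, adipocytes and Møs. Fabp4 was held by 11 of 45 obese and 24 of 31 CR cells, with a log2 ratio of 2.86, beside 2.70 in other T cells. It was held by 26.7% and 87.2% of other T cells and by 72.0% and 96.6% of Møs, so it was more common in every CR population compared. AY036118 (chromosome 17, bases 39847113 to 39848035) was 2.39 higher, beside 2.30. The MHC class II genes were lower in CR, with H2-Aa at −2.19 beside −2.26, H2-Eb1 at −2.32 beside −2.33, H2-Ab1 at −2.12 beside −2.28, and Cd74, the invariant chain, at −2.01 beside −2.34. In the obese IL-17-type T cells, 206 of 290 H2-Aa UMIs and 557 of 754 Cd74 UMIs came from 1 cell, and without the 4 cells Cd74 stood at −0.96, H2-Ab1 at −0.64 and H2-Aa at −1.54, so for these 3 genes the closeness to other T cells depended on those cells. The erythroid list, which holds haemoglobin genes, was 3 of 3 lower, with a median of −3.69 beside −4.82 in other T cells.

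Some genes of conventional T cells were higher in the CR cells and others were lower. Cd28 was 2.74 higher on the log2 scale in CR (interval 1.68 to 4.28), with 7 obese and 35 CR UMIs in 4 and 12 cells, beside 0.48 in other T cells. Lck was 2.37 higher (1.09 to 4.32), with 5 and 20 UMIs in 2 and 10 cells, beside 0.22. Tcf7, the factor TCF-1 of naive and memory cells, was 1.83 higher (0.53 to 3.60), beside 0.27. In the same direction, Lmna, a nuclear lamin, was 2.19 higher, beside 0.39. These 4 genes were also more than 2-fold higher without the 4 cells with signs of a second cell type. Other genes of the same lists pointed the opposite way, with Cd247 at −1.02, Zap70 at −0.90, Lat at −0.52, Bcl2 at −1.71 and Klf2, a factor of recirculating cells, at −0.67. The receptor and coreceptor list had a median of −0.06 and the naive list one of −0.67, so neither list was higher as a group. Cells with 2 or more conventional genes were 10 of 31 in CR and 4 of 45 in the obese library, and their part in the ratios of Cd28, Lck and Tcf7 was not tested.

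Several genes were lower in CR. Kcnk1 stood at −1.60 (−2.81 to −0.65), held by 27 of 45 obese and 6 of 31 CR cells, beside 1.27 in other T cells, and was the 1 gene of 18 measured in the type 17 list past 2-fold. Blk stood at −0.96 and Tmem176b at −0.92, both short of 2-fold, and the list's median was −0.19. Il2ra stood at −2.34 (−5.78 to −0.56), with 18 and 2 UMIs in 12 and 2 cells. Cd247 stood at −1.02 (−1.81 to −0.32), in 35 and 14 cells. Bcl2, a survival gene, stood at −1.71 (−2.74 to −0.88), in 24 and 11 cells.

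The counts by list are read beside the 5.76% higher and 4.14% lower over all genes measured, and a count of 1 in a list this short is near that background. Interferon and MHC class I genes had 2 of 8 lower in CR and 0 higher, with Tap1, a peptide transporter, at −1.90 and Ifi27l2a at −1.32, while the median was −0.26 beside 0.01 in other T cells. Tap1 had 24 obese and 4 CR UMIs. Tissue residence genes had 3 of 15 lower, with Crem, a cyclic AMP responsive factor, at −2.02, Pdcd1 at −1.10 and Adam8 at −1.05. Cell division genes had 3 of 7 higher and 0 lower, with Top2a at 1.77 and Birc5 at 1.92, and 10 of 20 Top2a and 13 of 17 Birc5 CR UMIs came from 1 cell each. Immediate early and heat shock genes had 3 of 16 higher, with Fosb at 1.93, Dnajb1 at 2.10 and Hspa1a at 1.33. Fosb was 1.63 higher in other T cells as well. Fatty acid genes had 2 of 8 higher, Cd36, a fatty acid transporter, at 1.25 and Acadl, a mitochondrial dehydrogenase, at 1.34. The Mø list had 3 of 8 higher, C1qa, C1qb and Apoe, and 1 lower, Cd74; C1qb stood at 1.46 with 23 of 65 CR UMIs in 1 cell, and at 0.31 without the 4 cells. Receptor and coreceptor genes had 2 of 7 higher (Lck and Cd28) and 1 lower (Cd247), cytokine receptors 1 of 8 lower (Il2ra), and naive genes 1 of 3 higher (Tcf7) and 1 lower (Bcl2). Of the 2 measured fibroblast genes Gsn, an actin-severing protein, was higher, at 1.38. Glycolysis genes, the cytotoxic genes, the cytokines and the regulatory genes that passed the limits had 0 past 2-fold.

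Other large ratios drew many of their UMIs from single cells. Hist1h2ap, a replication-dependent histone, was 3.92 higher in CR, with 75 of 101 CR UMIs in 1 cell. Ccl4, a chemokine, was 2.16 higher with 97 of 115 in 1 cell, and Dnajb1 2.10 higher with 40 of 81. Fcgr4 was 4.78 higher with 25 of 33 UMIs in 1 cell, Hmox1 4.06 higher with 53 of 54, and Fcer1g, a signalling chain of Fc receptors, 1.65 higher with 86 of 132. On the obese side, S100a8 drew 115 of 116 UMIs, S100a9 83 of 83, Retnlg (a neutrophil secreted protein) 28 of 30, Sparc (a matrix protein) 85 of 87 and Napsa (an aspartic protease of myeloid and B cells) 20 of 20 from 1 cell each. Il1b drew 19 of 37 from 1 cell.

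**Figure D5:**
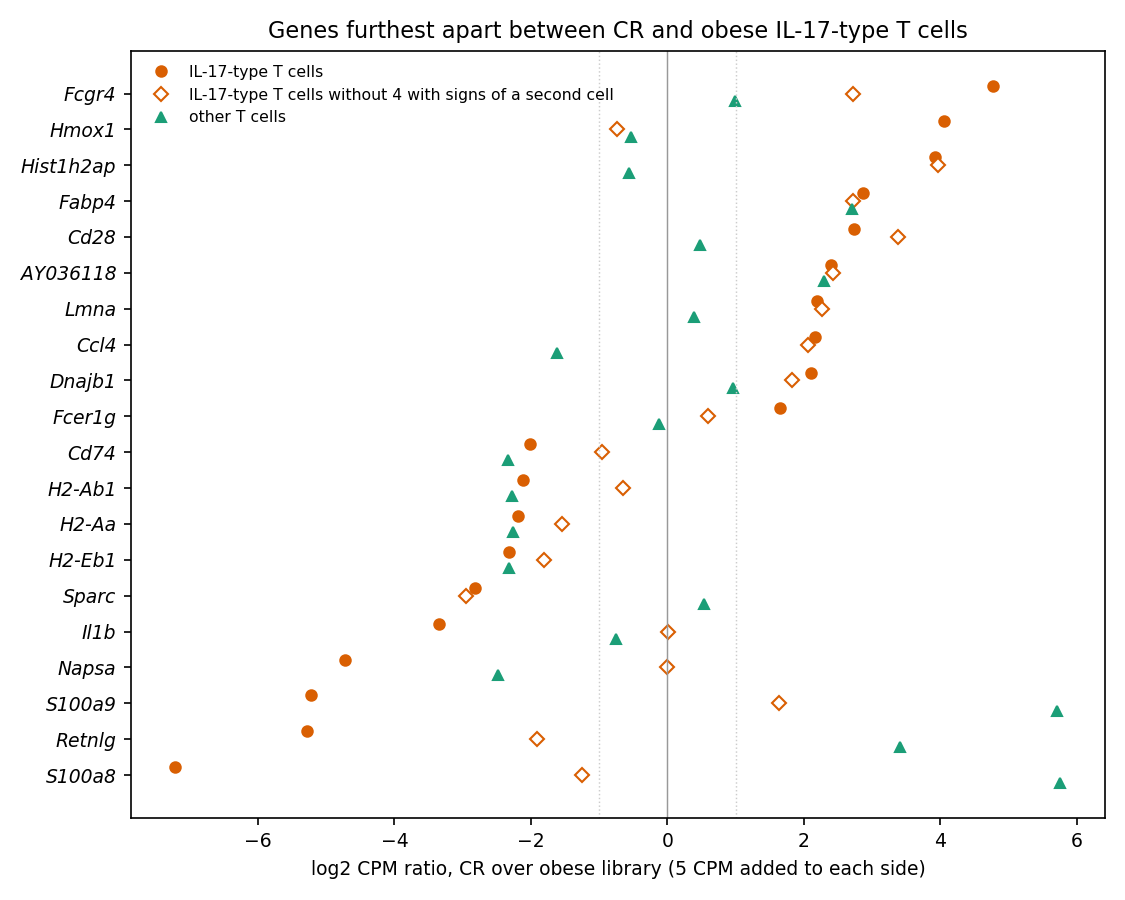
Log2 CPM ratio of CR over obese (x axis) for the named genes (y axis) in IL-17-type T cells, beside the ratio in other T cells and the ratio in IL-17-type T cells without the 4 cells with signs of a second cell type. Fabp4 stands at 2.86 beside 2.70 in other T cells, Cd74 at −2.01 beside −2.34 but at −0.96 without the 4 cells, and S100a8, Retnlg and Ccl4 point the opposite way in other T cells.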

How the data were processed

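Live CD45+ cells of VAT were profiled with the 10x Genomics 3′ assay, 1 library per group. The authors aligned reads to mm10 and counted UMIs with Cell Ranger v. 2.2, and the deposited values are unnormalised UMI counts per gene and barcode from the filtered matrices, before the authors' filters on outlying barcodes. No annotation of cell types was used; the cells were rebuilt from counts, and no doublet caller was run. The members and gene lists were chosen with earlier results of these data known.

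UMIs were summed per library and population and scaled to CPM of all UMIs, with 5 CPM added to both sides of a log2 ratio. Genes needed at least 20 UMIs in the 2 pools and 50 CPM in 1. With 1 library per group, cells were not replicates, so no test was run and a gene was called on 2-fold alone. Shares carry Clopper-Pearson intervals and ratios exact conditional intervals, at 95%. Macrophages were kept barcodes with a Csf1r UMI, no Cd3 UMI and no Cd79a UMI, and stood for free RNA. Cells were thinned to 1500 UMIs with a fixed seed, which left out no kept barcode. A count of 0 was given a floor of 3 counts over the pool. Named genes were the 12 highest and 10 lowest against other T cells by the smaller ratio of the 2 libraries, the 10 highest and 10 lowest of CR against obese by the interval bound nearest to 0, up to 4 measured genes of a list with the largest ratio, and the type 17 list in full; other genes were named after their values were seen. Scripts were tested on simulated data and run in Python 3.11.15 with numpy 2.4.6 and scipy 1.17.1, and TMM factors came from edgeR 4.0.16 in R 4.3.3. T cell receptor and immunoglobulin genes matched no row and were not analysed here. Of the listed genes, 2 are not reported here and were left out of the list counts.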

Additional observations from a re-analysis of the deposited data

Results flagged for a closer look

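Listed here are 7 of the genes named as highest or lowest in CR against obese cells. Their CR over obese log2 ratio pointed one way in IL-17-type T cells and the opposite way in other T cells. Other genes did so too, among them Kcnk1. Of the 196 genes at least 2-fold apart between CR and obese IL-17-type T cells, 128 pointed the same way in other T cells. The difference between the populations was not tested, since each group had 1 library. Hist1h2ap was 3.92 in IL-17-type and −0.57 in other T cells, Ccl4 2.16 and −1.62, and Fcer1g 1.65 and −0.12. Sparc was −2.82 and 0.54, S100a9 −5.22 and 5.70, Retnlg −5.29 and 3.41, and S100a8 −7.21 and 5.76. In each of the 7 genes more than 50% of the UMIs on the higher side came from 1 IL-17-type T cell.

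Barcodes outside the T cells also held the genes that chose the cells. In the obese library 6 kept barcodes, and in the CR library 6, had no Cd3 UMI, no Csf1r UMI and at most 1 Cd79a UMI but held Cd163l1, Il17a or Il23r. None of them held Blk, 1 in each library held Cxcr6, and all of them held Lyz2, a lysozyme gene of myeloid cells.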

How the results depend on the processing

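No paired analysis was possible because each group had 1 library and no result came from a test. For the same reason no library could be left out. Alternatives on members with signs of a second cell, members with coreceptors and other T cells without Cd8 genes were chosen after seeing the data. The shares of IL-17-type T cells moved beyond their counting interval in 2 settings. With at least 2 UMIs of the choosing genes the CR share was 0.697% of kept barcodes and 4.88% of T cells. With Cd163l1 left out of the choice the obese share was 0.500% of kept barcodes and 4.35% of T cells. Counts of genes past 2-fold moved most with the limits on low counts. With none, 310 genes were higher and 479 lower than in other T cells, and 2455 were higher and 2177 lower in CR than in obese cells. With at least 50 UMIs and 200 CPM these counts were 36, 15, 20 and 24, and the type 17 list had 10 members higher in place of 16. In CR against obese cells, 75 genes were higher with 20 CPM added, and 73 higher and 125 lower with TMM factors. The type 17 list had 10 to 23 members higher over all settings, and 13 against other T cells without Cd8a and Cd8b1. Single genes were followed only for the 12 highest and 10 lowest against other T cells and the 10 highest and 10 lowest of CR against obese. Of the 64 values of these genes, 3 changed sign and 4 no longer reached 2-fold, all without the 4 cells with signs of a second cell. Other named genes were not followed one by one, and the type 17 list, at 16 in the main setting, had 13 members higher with TMM factors. Hmox1 then stood at −0.73, S100a9 at 1.63 and Il1b at 0.013. Alternatives that needed Trdc and Trac, 12 on their share and 1 on each count of genes, were not run, since the receptor genes were not analysed here. Depth limited the low genes: 3 counts over the pool were 19.0 CPM in the obese and 27.8 CPM in the CR cells.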
